A study of Saccharomyces cerevisiae with 4 samples.

Results

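The glucosamine route is the chain of 4 enzymatic steps by which budding yeast (Saccharomyces cerevisiae) turns fructose 6-phosphate into UDP-N-acetylglucosamine (UDP-GlcNAc). Its members were taken by the systematic names YKL104C (GFA1), YFL017C (GNA1), YEL058W (PCM1) and YDL103C (QRI1, also called UAP1). All 4 were found among the 6207 open reading frames (ORFs) of the deposited table, and all 4 had a value on each array. Wild-type cells in rich medium (YEPD) at 24 °C were diluted, regrown for 2 h 30 min and divided, and 1 part received Zymolyase 100T at 5 units/ml for 3 h while the other received none. Zymolyase is a mixture of enzymes that breaks down wall glucan. Total RNA of treated and untreated cells was compared on 4 two-colour arrays, made from 2 cultures with a dye swap each. On arrays 1 and 3 the treated RNA was labelled with Cy3, on arrays 2 and 4 with Cy5, and the labels do not tell which arrays belong to 1 culture.

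UDP-GlcNAc is the sugar donor for chitin, the polymer of N-acetylglucosamine that yeast lays down at the bud neck, in the division septum and in the lateral wall. The same donor starts the lipid-linked sugar chain of N-glycosylation and the glycosylphosphatidylinositol (GPI) anchor of many wall proteins. GFA1 encodes glutamine-fructose-6-phosphate amidotransferase, the first step, which moves an amino group from glutamine onto the sugar and is known as the step that controls flow into chitin. GNA1 encodes the acetyltransferase that adds an acetyl group from acetyl-CoA, PCM1 the mutase that moves the phosphate from carbon 6 to carbon 1, and QRI1 the pyrophosphorylase that joins the sugar phosphate to uridine from UTP.

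Values are log ratios of the channels of an array, read as log2 since the deposited base is not stated, and every fold below rests on that reading. Across ORFs, deposited ratios of arrays with opposite dye orientations correlated below 0 (r from -0.522 to -0.080), so each array was turned by the dyes in its labels. The labels do not name the channel in the numerator. SLT2, whose product is the last kinase in the cell wall integrity cascade, was used to set the sign, and a positive value is called the side of SLT2. If the ratios are Cy3 over Cy5, that side is the higher in treated cells; if they are Cy5 over Cy3, it is the lower. SLT2 is known to be induced by wall damage, which as background would make its side the higher. SLT2 itself had 2.14, 2.39, 2.18 and 2.31 on arrays 1 to 4. Across ORFs the turned arrays correlated with r between 0.080 (arrays 1 and 4) and 0.738 (arrays 2 and 4), the latter a pair with the same dye orientation, and ORFs are not independent replicates. The main test was limma on averages of the arrays of a culture (n = 2 cultures), with the larger p of both possible pairings of arrays into cultures and Benjamini-Hochberg adjustment over 4543 ORFs at a threshold of 0.05.

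GFA1 changed on the side of SLT2, and the other 3 genes of the route did not pass the test. GFA1 had log2 ratios of 1.48, 1.63, 1.48 and 1.55 on arrays 1 to 4. The 4 values lay within 0.151 of each other, close together in both dye orientations. Their mean was 1.54 ± 0.071 (SD of 4 arrays, n = 2 cultures), a 2.90-fold difference between treated and untreated cells, with single arrays between 2.79-fold and 3.09-fold. The limma adjusted p was 0.000178 and the wider 95% interval of both pairings ran from 1.26 to 1.81. Of all ORFs tested 5.94% passed, 4.56% with SLT2 and 1.39% opposite to it, and of the 4 genes of the route 1 passed.

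GNA1, the acetyltransferase of the next step, had log2 ratios of 0.027, -0.051, -0.236 and -0.087 on arrays 1 to 4. Signs were mixed, with array 1 just above 0 and array 3 lowest, and all 4 lay near 0. The mean was -0.087 ± 0.110, and the limma adjusted p was 0.781. The 95% interval of -0.37 to 0.20 contained 0 and did not reach the lowest GFA1 array. That the p missed the threshold does not show that GNA1 was unchanged.

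PCM1, the mutase, stood between GFA1 and the other steps and narrowly missed the test. It had log2 ratios of 0.512, 1.19, 0.123 and 0.601 on arrays 1 to 4. All 4 lay on the side of SLT2, but they spread over 1.06, with array 2 highest and array 3 close to 0. The mean was 0.61 ± 0.44, a 1.52-fold difference, with a 95% interval of 0.27 to 0.94 and a limma adjusted p of 0.0525 (unadjusted p = 0.00326).

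PCM1 differed between arrays of opposite and of the same dye orientation. Its mean was 0.318 on the arrays with treated RNA on Cy3 and 0.894 on those with it on Cy5, a gap of 0.576, against a gap of 0.110 for GFA1, 0.036 for GNA1, 0.187 for SLT2 and -0.011 for QRI1. Arrays of the same orientation differed as well, with 0.512 on array 1 against 0.123 on array 3 and 1.19 on array 2 against 0.601 on array 4. A balanced swap cancels a dye effect in the mean, and the part of the dyes in the spread of PCM1 was not tested. Pairing array 1 with array 2 and array 3 with array 4 gave PCM1 culture means of 0.850 and 0.362, and pairing array 1 with array 4 and array 2 with array 3 gave 0.556 and 0.655. The second pairing alone gave PCM1 an adjusted p of 0.000194 in limma, in a fit that called 27.1% of all ORFs. PCM1 also passed with the 4 arrays taken as independent and a dye term (adjusted p = 0.0387 in limma, 11.3% of ORFs called), over ORFs with 3 or more values (0.0394, 10.6%), with robust empirical Bayes (0.000140, 12.8%) and without array 4 (0.0209, 4.78%), but not with the 4 arrays as independent and no dye term (0.0959), nor with arrays centred, scaled or quantile normalized, nor without array 1, 2 or 3.

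QRI1, the pyrophosphorylase that makes UDP-GlcNAc itself, had log2 ratios of 0.147, 0.032, -0.068 and 0.025 on arrays 1 to 4. Array 1 was highest and array 3 was below 0, and all 4 lay near 0. The mean was 0.03 ± 0.088, with a 95% interval of -0.25 to 0.31 and a limma adjusted p of 0.924. Without array 1 its fitted value turned to -0.020.

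**Figure D1:**
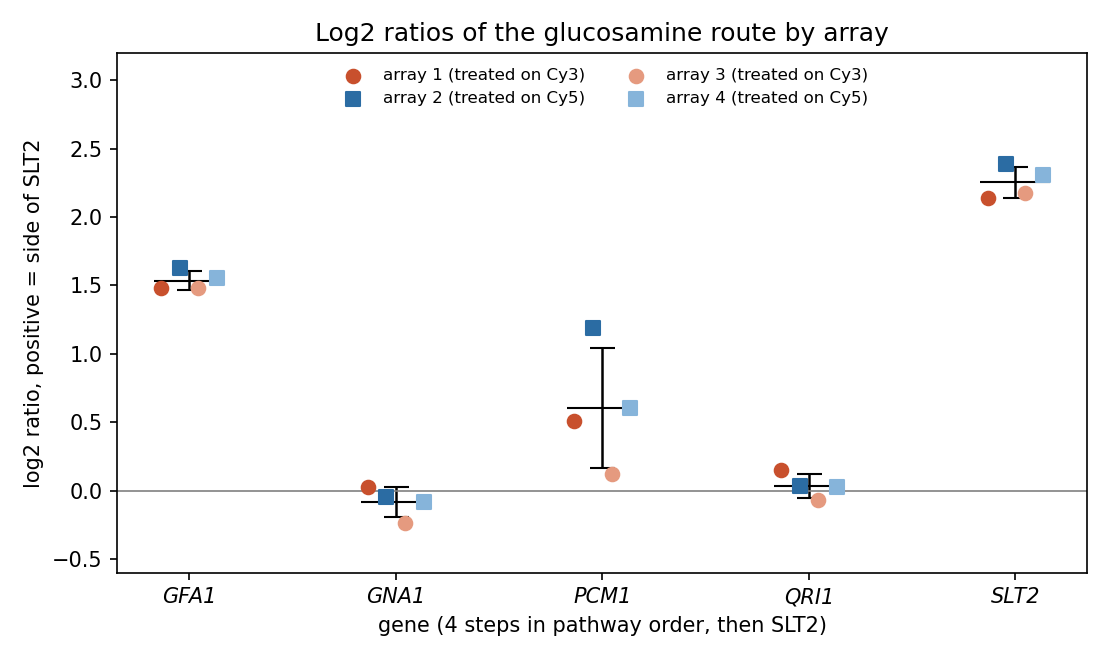
Turned log2 ratios (vertical axis) of the 4 genes of the route in pathway order and of SLT2 (horizontal axis). Points are single arrays (circles, treated RNA on Cy3; squares, on Cy5) and black bars give the mean ± SD of 4 arrays: GFA1 sits at 1.54 ± 0.071, GNA1 and QRI1 around 0, and PCM1 spreads from 0.123 to 1.19 with both squares above both circles.

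Within each array GFA1 differed more than the later steps. Its log2 ratio exceeded that of GNA1 by 1.45, 1.68, 1.72 and 1.64 on arrays 1 to 4, a mean difference of 1.62 ± 0.119. It exceeded that of QRI1 by 1.33, 1.60, 1.55 and 1.53, a mean difference of 1.50 ± 0.117. Both gaps were about as large as the change of GFA1 itself and were positive on all 4 arrays.

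Against PCM1 the gap was smaller and less even, at 0.966, 0.442, 1.36 and 0.953 on arrays 1 to 4, with a mean difference of 0.93 ± 0.376. Array 2, where PCM1 was highest, gave the smallest gap, and GFA1 was still the larger there. In an exact two-sided sign permutation test each of the 3 differences had p = 0.125 (0.125 after Benjamini-Hochberg adjustment over the 3), which is the smallest p that 4 arrays allow. That test takes the arrays as independent although they come from 2 cultures. Such differences are between changes, not between transcript levels, which these ratios do not give.

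**Figure D2:**
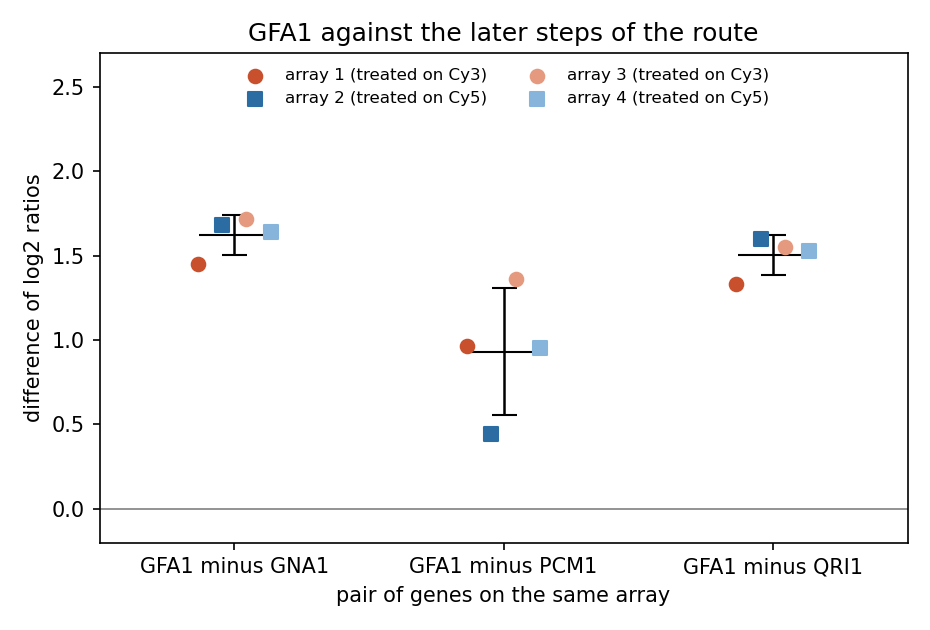
Difference of log2 ratios on the same array (vertical axis) between GFA1 and each later gene of the route (horizontal axis). Points are arrays (circles, treated RNA on Cy3; squares, on Cy5) and black bars the mean ± SD of 4 arrays: all 12 points lie above 0, and those against PCM1 reach down to 0.442 on array 2.

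The change of GFA1 combined a large size with a small spread. By mean log2 ratio it ranked 32 of 4543 ORFs, so that 99.3% had a lower mean, while PCM1 ranked 180, QRI1 1671 and GNA1 2808. Of 74 ORFs with a mean of at least 1 on the side of SLT2, 5, GFA1 included, had an SD no larger than that of GFA1, and the median SD of the 74 was 0.363. The other 4 were the wall protein gene PIR1 (SD 0.029), TOH1 (0.034), the phosphatase gene PTP2 (0.046) and GPC1 (0.069), which were named after their values were seen. Among all tested ORFs 3.30% had a smaller SD than GFA1, against 5.83% for QRI1, 11.0% for GNA1 and 86.2% for PCM1. The signal over background behind a ratio was not used here. The limma intervals and p rest on 2 cultures and on a variance that limma shares across ORFs, not on the SD of GFA1 alone.

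**Figure D3:**
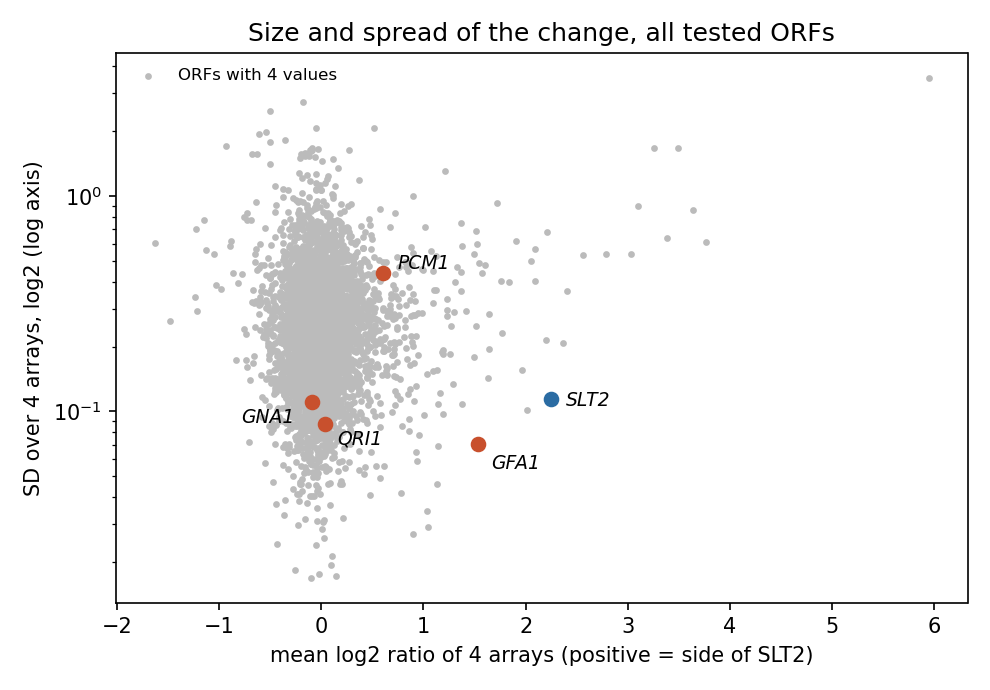
Mean log2 ratio of 4 arrays (horizontal axis) against the SD over those arrays (vertical axis, log scale) for 4543 ORFs in grey, with the 4 genes of the route in red and SLT2 in blue. GFA1 lies at 1.54 with an SD of 0.071, below the bulk of ORFs of that size, whereas PCM1 lies at 0.61 with an SD of 0.44.

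The ORFs nearest to GFA1 over the 4 arrays, by root mean square difference of log2 ratios, were YML131W (0.103), MSC1 (0.155), ALD3 (0.169), GPP2 (0.199) and PAL2 (0.219). ALD3 encodes an aldehyde dehydrogenase and GPP2 a glycerol-3-phosphate phosphatase. Each of these 5, picked for values close to those of GFA1, had a mean between 1.38 and 1.64 and passed the test. Nearest to PCM1 were DGR2 (0.129), the cyclic AMP phosphodiesterase gene PDE1 (0.154) and MID2, which encodes a wall stress sensor of the cell surface (0.165). These 3 were picked for closeness to PCM1 array by array, and they had its ordering, with array 2 highest and array 3 lowest. MID2 had 0.539, 1.02, 0.307 and 0.815 on arrays 1 to 4. PDE1 and MID2 passed the test (limma adjusted p = 0.0204 and 0.0181), while DGR2 had 0.0510. Around GNA1 lay RPL18B, GRR1 and MSC6 (0.017 to 0.031), and around QRI1 lay DSC3, DIA4 and DBR1 (0.016 to 0.029), all 6 with means near 0 and not past the test. This measure says only that 4 numbers are close, and many ORFs lie near 0. The means, orderings and calls of the ORFs named here follow largely from how they were picked and are no separate result.

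Genes that supply the substrates of the route had values on both sides. Of 9 listed 8 had values on 4 arrays, 1 changed on the side of SLT2 (4.56% of all ORFs) and 1, GLN1, opposite to it (1.39%), with a median of 0.16 against -0.03 over all tested ORFs. HXK1, the gene of a hexokinase, which phosphorylates glucose, had 0.962, 0.727, 0.624 and 0.756 on arrays 1 to 4 (mean 0.77 ± 0.142, limma adjusted p = 0.00838). GLN1 encodes glutamine synthetase, which makes the amino donor that GFA1 spends, and it lay opposite to GFA1. It had -0.411, -0.888, -0.762 and -0.898 on arrays 1 to 4, below 0 on each and weakest on array 1. Its mean was -0.74 ± 0.228, with a limma adjusted p of 0.0104. HXK1 and HXK2 are close in sequence and may share signal, and HXK2 had -0.01 ± 0.216. PGI1, whose product makes fructose 6-phosphate, had 0.35 ± 0.548 and the glucokinase gene GLK1 0.57 ± 0.503, both below 0 on array 1 and above 0 on the other 3. ACS2, an acetyl-CoA synthetase gene, had 0.10 ± 0.128, and the nucleotide kinase genes URA6 and YNK1, whose products lead to UTP, had -0.23 ± 0.202 and 0.22 ± 0.270. ACS1 had no value on any array.

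Downstream, part of the chitin synthesis genes lay on the side of GFA1. Of 8 listed 6 had 4 values, 2 changed on the side of SLT2 (4.56% of all ORFs) and 0 in the other direction (1.39%), with a median of 0.39. CHS1, the chitin synthase gene of septum repair, had 1.05, 0.858, 0.931 and 0.655 on arrays 1 to 4, and CHS7, which is needed for Chs3 to leave the endoplasmic reticulum, had 0.982, 0.863, 0.766 and 0.815. Both were above 0 on every array and each stayed below every GFA1 value (limma adjusted p = 0.00433 and 0.00445). CHS2, the septum synthase gene, had a mean of -0.09 ± 0.224 and CHS3, the gene of the synthase that makes most wall chitin, -0.05 ± 0.277. SKT5, an activator of Chs3, had 0.46 ± 0.262 and CHS5, of its transport, 0.33 ± 0.280, neither past the test. CHS6 and BNI4 had values on arrays 1 and 4 only, at 0.132 and 0.788 for CHS6 and -0.067 and -0.181 for BNI4.

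Other users of UDP-GlcNAc were also measured. Of 9 listed genes for the first steps of N-glycan and GPI anchor assembly 7 had 4 values and 0 passed in limma (5.94% of all ORFs did on either side), and the median was -0.04. At an unadjusted limma p under 0.05 stood 1 of the 7, SPT14, against 878 of all 4543 tested ORFs. Substrate supply had 4 of 8 there and chitin synthesis 4 of 6. Of the lists given below, other sugar nucleotides had 3 of 6 and relatives 2 of 5. The lists are small and none was tested as a set. SPT14 encodes the catalytic subunit of the enzyme that starts the GPI anchor. SPT14 had 0.644, 0.507, 0.061 and 0.442 on arrays 1 to 4, above 0 on each with array 3 close to it (mean 0.41 ± 0.250, limma adjusted p = 0.125). It passed in the second pairing alone (adjusted p = 0.00469 in limma, 27.1% of ORFs called) and with robust empirical Bayes (0.0200, 12.8%). It also passed without array 3, its lowest array (adjusted p = 0.0439 in limma, 5.64%). The other subunit genes GPI1, GPI2 and GPI15 had means of 0.03, -0.17 and -0.09, GPI2 being the lowest of the list. The N-glycan genes ALG7, ALG13 and ALG14 had -0.14, 0.09 and -0.04. GPI19 had no value on any array, and ERI1 was not found among the ORFs of the deposited table.

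Routes to the other sugar nucleotides, which also draw on hexose phosphates, had 2 of 6 genes past the test on the side of SLT2 (4.56% of all ORFs) and 0 in the other direction (1.39%), with a median of 0.32. PGM2, a phosphoglucomutase gene on the way to UDP-glucose, had 1.05, 0.961, 1.04 and 1.31 on arrays 1 to 4 (mean 1.09 ± 0.155, limma adjusted p = 0.00138). UGP1 encodes UDP-glucose pyrophosphorylase, which does for glucose what QRI1 does for N-acetylglucosamine, and had 0.814, 0.679, 0.458 and 0.354. Its mean was 0.58 ± 0.208 with a limma adjusted p of 0.0446. The call ended with arrays centred (0.0714), centred and scaled (0.0748), with quantile normalization (0.0647) and without array 1, 2 or 3 (0.0844, 0.119 and 0.0514). PCM1, which narrowly missed the test, had a mean close to that of UGP1, and the difference between the routes was not tested. PGM1, the other mutase gene, had 0.22 ± 0.381. On the way to GDP-mannose, PMI40, which draws on the same fructose 6-phosphate as GFA1, had 0.25 ± 0.319, SEC53 0.14 ± 0.290, the lowest of the list, and PSA1 0.38 ± 0.126, none past the test.

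Relatives of the route by sequence or reaction had 0 of 5 tested genes past the test with SLT2 (4.56% of all ORFs) and 1 on the other side (1.39%), with a median of -0.15. YMR084W and YMR085W are neighbouring ORFs that resemble parts of GFA1, so that their probes could share signal with it. YMR084W had no value on any array and YMR085W had -0.394 on array 3 and 0.112 on array 4, where GFA1 had 1.48 and 1.55. Of the genes whose enzymes, like Gfa1, take an amino group from glutamine, ADE4 of purine synthesis had -0.199, -0.560, -0.439 and -0.644, all below 0 (mean -0.46 ± 0.193, limma adjusted p = 0.0698). The asparagine synthetase gene ASN1 had -1.03, -0.741, -0.497 and -0.273, also all below 0 (mean -0.63 ± 0.324, limma adjusted p = 0.0454). The call of ASN1 ended with arrays centred (0.117), centred and scaled (0.116), with quantile normalization (0.0641) and without array 1, 2 or 3 (0.106, 0.124 and 0.0552). ASN2, its close copy, had -0.08 ± 0.209, and the glutamate synthase gene GLT1 had -0.15 ± 0.294. PRM15, also called PGM3, a member of the phosphohexomutase family to which PCM1 belongs, was the highest at 0.07 ± 0.183.

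**Figure D4:**
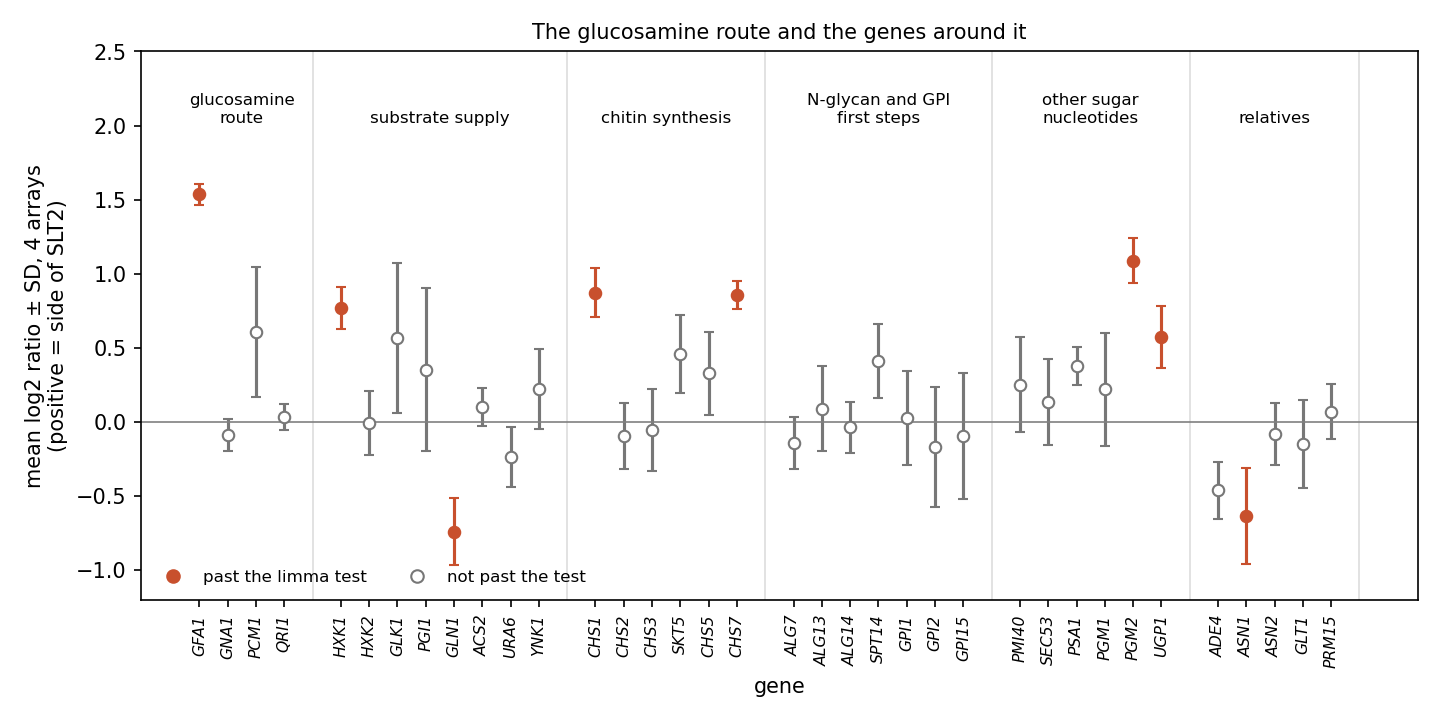
Mean log2 ratio ± SD of 4 arrays (vertical axis) for the genes of the route and of the 5 related lists with 4 values (horizontal axis), filled red where limma passed and open where it did not. GFA1 is the highest of the genes drawn at 1.54, PGM2 follows at 1.09, and GLN1 is the lowest at -0.74.

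Of the measured ORFs beside the 4 genes on the chromosomes, 1 passed the test, opposite to SLT2. Of all tested ORFs 5.94% passed on either side and 1.39% opposite to SLT2. SEG2 and SDD1 lacked values on some arrays and were not tested. The nearest non-overlapping measured ORFs in the R64 gene table, a choice made after values were seen, were SEG2 and APE1 for GFA1, LPD1 and MDJ1 for GNA1, HHY1 and SDD1 for PCM1, and QRI7 and POL3 for QRI1. APE1, a vacuolar aminopeptidase gene, lay on the opposite side from GFA1, with -2.43, -1.21, -1.75 and -1.12 on arrays 1 to 4 (mean -1.63 ± 0.602, limma adjusted p = 0.00028). It was the lowest mean of all tested ORFs, and its values did not overlap those of GFA1. SEG2, on the other flank, had -0.374, -0.128 and 0.281 on arrays 1, 3 and 4. The 5 flanking ORFs of the other members with 4 values had means between -0.15 and 0.06 and none passed, and SDD1 had 0.115 and -0.030 on arrays 3 and 4.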

How the data were processed

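The authors deposited 1 table of log ratios of the channels of each array, with a row per ORF, read here as log2. How these deposited values were background-corrected, normalized and filtered, their base and their numerator were not stated by the labels. Of 6209 rows 2 were control rows and were left out. Gene names came from the RefSeq table of assembly R64, which matched 5654 of 6207 ORFs, and its gene order was used only to find neighbouring ORFs. Empty cells made up 16.0% to 21.3% of ORFs per array, and 4543 ORFs had 4 values. No sequences were used, so near-identical and overlapping ORFs may share signal.

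Each array was turned by the dyes in the labels, with SLT2 set positive. Arrays of a culture were averaged and tested with limma 3.58.1 in R 4.3.3 (lmFit, eBayes) in both pairings that hold a dye swap. Each ORF kept its larger p, and Benjamini-Hochberg adjustment ran over all tested ORFs. A wrong pairing mixes cultures. Intervals are the wider of both. The scripts were tested on simulated data. Named were the 4 members, SLT2, the passing, highest and lowest members of 5 lists, and the ORFs nearest to GFA1 (5) and to each other member (3). Other list members, PIR1, TOH1, PTP2, GPC1 and the chromosomal neighbours were named after their values were seen. Members and lists were chosen with earlier results of these data known.

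Alternatives were each pairing, 4 arrays as if independent with or without a dye term, centring, scaling, quantile normalization, robust empirical Bayes, a minimum of 3 values per ORF and leaving out each array. Fits without an array took the others as independent with a dye term.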

Additional observations from a re-analysis of the deposited data

How the results depend on the processing

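GFA1 kept its side and its call in all 13 alternatives run (1.52 to 1.57, limma adjusted p up to 0.0108). GNA1 (-0.15 to -0.02) and QRI1 (-0.02 to 0.09) passed in none. PCM1 stayed positive, between 0.46 and 0.75, the ends being the fits without array 2 and without array 4. It kept 0.61 and passed when array 1 was paired with array 4 and array 2 with array 3 (the second pairing), with 4 arrays as if independent and a dye term, with 3 or more values and with robust empirical Bayes. PCM1 also passed without array 4, at 0.75, but in none of the remaining alternatives. The 3 differences from GFA1 stayed positive in the 6 alternatives run for each.

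Over all ORFs 207 passed with SLT2 and 63 opposite to it. Pairing array 1 with array 2 and array 3 with array 4, fitted alone, gave the same counts. It also gave the 4 genes of the route the same p, so the larger p kept for each came from that pairing. These counts were 598 and 631 in the second pairing, 319 and 193 with 4 arrays as if independent and a dye term, 338 and 189 with 3 or more values, and 358 and 225 with robust empirical Bayes. The counts were 166 and 27 with arrays centred, 147 and 19 with scaling as well, and 181 and 60 with quantile normalization. Without 1 array the counts were 151 to 196 and 39 to 60, the opposite count being 39 without array 2 and also without array 4. The second pairing called 27.1% of all ORFs. In it the members past the test were 5 of 8 for substrate supply and 4 of 6 for chitin synthesis. They were 1 of 7 for N-glycan and GPI steps, 4 of 6 for other sugar nucleotides and 2 of 5 for relatives. Other sugar nucleotides had 1 with arrays centred, centred and scaled, or quantile normalized, and 1 to 2 without 1 array (1 without array 1, 2 or 3). Relatives had 0 in the same 3 normalizations and 0 to 1 without 1 array (0 without array 1, 2 or 3). They had 2 with 4 arrays as if independent and a dye term (11.3% of ORFs called) and with 3 or more values (10.6%). With robust empirical Bayes (12.8%) they also had 2. N-glycan and GPI steps had 1 with robust empirical Bayes (12.8% of ORFs called) and 0 to 1 without 1 array (1 without array 3, 5.64%). SKT5, GLK1, PSA1 and ADE4 missed the main test but passed in the second pairing and with robust empirical Bayes. They also passed with 4 arrays as if independent and a dye term and with 3 or more values. GLK1 passed without array 2 as well. CHS5, PGI1, URA6 and PMI40 passed only in the second pairing. The cause of these shifts was not tested. Each ratio pairs treated with untreated RNA on its array. No paired analysis was possible beyond that, because there is 1 group of arrays and no second group to block by number. With 2 cultures of unknown pairing and no intensities used here, small changes could be missed.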
